A study of Mus musculus with 3 samples.

Results

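Chemokines and their receptors were read in RNA from mouse brain vessels. The 10 genes described here were given as a list: the ligands Cxcl12, Cx3cl1, Cxcl16, Ccl2, Cxcl1 and Cxcl10, the signalling receptors Cxcr4 and Ccr2, and the atypical receptors Ackr3 and Ackr1. They are 10 of 29787 genes to which the deposited transcript counts could be assigned, and each transcript was matched to its gene by identifier.

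The series holds 3 libraries of brain vessel RNA from 3-month-old mice, 1 library for each group. The Cx43-deleted mice were labelled hGFAP-Cre/Cx43fl/fl and Cx43 -/-: the connexin 43 gene was removed by Cre recombinase under the human GFAP promoter, an astroglial promoter, on a C57BL6-BALB/c background. They were set against wild types (WT) of that same C57BL6-BALB/c background, the matched control, and against C57BL6 wild types. The labels name no Cre or floxed allele for the wild types, and they do not state how many animals went into a library. With 1 library per group there was no replicate spread and no test, so every difference is one between libraries, and strain, animal and library preparation cannot be told apart from it.

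Chemokines are small secreted or membrane-bound proteins that guide leukocytes through G protein-coupled receptors. At the brain vessel wall some are made steadily: CXCL12 on the abluminal side of the endothelium holds leukocytes in the perivascular space, and CX3CL1 is a membrane-tethered chemokine made mainly by neurons in brain and also by endothelium. Others, such as CCL2, CXCL1 and CXCL10, are induced by inflammatory cytokines and recruit monocytes, neutrophils and T cells. Atypical receptors bind chemokines without G protein signalling: ACKR3 removes CXCL12, and ACKR1, a marker of venular endothelium, binds many inflammatory chemokines.

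The library totals were 54975610 reads in the Cx43-deleted library, 21170766 in the C57BL6-BALB/c WT and 24830975 in the C57BL6 WT, so counting error was smallest in the Cx43-deleted library. Gene levels are given as CPM, the counts summed over a gene's transcripts and scaled to the library total. A read was counted on each transcript it overlaps, so 1 read can enter the CPM of a gene several times. Cxcl12, with 4 transcripts, was at 709 CPM in the Cx43-deleted library, against 347 for its most abundant transcript alone. Sums over marker lists carry the same repeats. Gja1, which encodes connexin 43, was at 48.0 CPM in the Cx43-deleted library, against 202 in the C57BL6-BALB/c WT and 202 in the C57BL6 WT. All 15 pan-endothelial markers sought were read in each library, and they summed to 9274 CPM in the Cx43-deleted library, 8901 in the C57BL6-BALB/c WT and 14443 in the C57BL6 WT. Neuronal markers summed to 3491 (Cx43-deleted), 3751 (C57BL6-BALB/c WT) and 3102 (C57BL6 WT) CPM, so RNA of brain parenchyma was also read. In such bulk RNA fewer cells of a type and less RNA per cell cannot be told apart.

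Levels of different genes were compared per length, as CPM of the most abundant transcript divided by its length in kb. Cx3cl1 was the highest of the 10, at 132 in the Cx43-deleted library, 162 in the C57BL6-BALB/c WT and 190 in the C57BL6 WT. Cxcl12 and Ackr1 came next, at 61.6 and 61.3 in the Cx43-deleted library and 65.0 and 61.3 in the C57BL6-BALB/c WT, where their 95% Poisson intervals overlapped, while in the C57BL6 WT Cxcl12, at 117, was clear of Ackr1, at 81.3. Ackr3 followed in each library, at 24.1 (Cx43-deleted), 32.7 (C57BL6-BALB/c WT) and 38.9 (C57BL6 WT). Cxcr4 came after it, at 3.86 in the Cx43-deleted library, 7.45 in the C57BL6-BALB/c WT and 10.03 in the C57BL6 WT. From Cxcl16 down, with 1.803 (Cx43-deleted), 2.46 (C57BL6-BALB/c WT) and 3.50 (C57BL6 WT), all neighbours in the order had overlapping intervals, except Cxcl10 and Cxcl1 in the Cx43-deleted library. Cxcl10, Cxcl1, Ccl2 and Ccr2 ended the list in each library, all under 3 on this scale. These last 4 rest on fewer than 100 reads in every library. A level of 1 CPM or more in at least 1 library, the minimum used over all genes, was met by all 10, by Ccl2 and Cxcl1 in the WT libraries only.

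**Figure D1:**
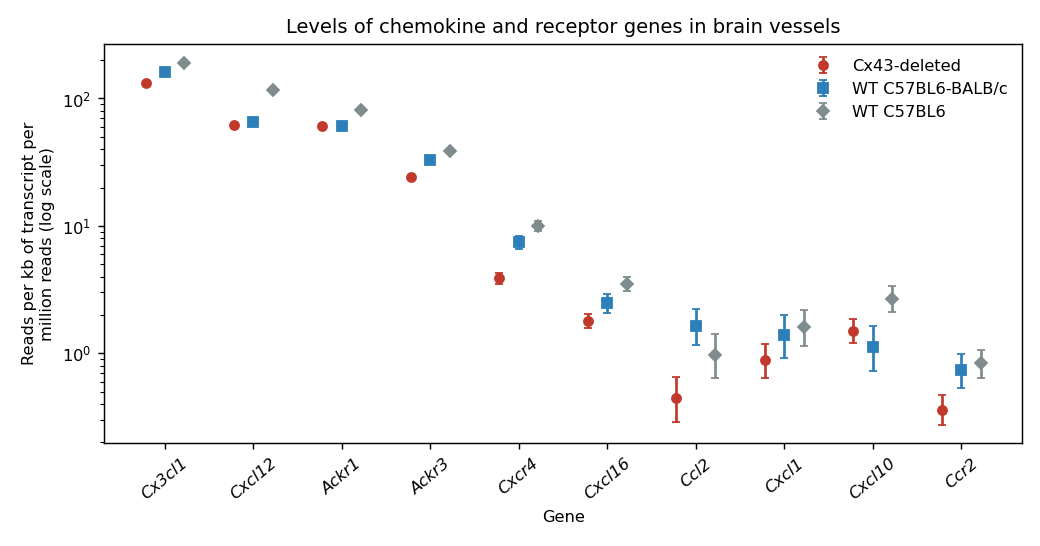
CPM of the most abundant transcript per kb of its length (log axis) for the 10 genes in the Cx43-deleted, the C57BL6-BALB/c WT and the C57BL6 WT libraries, 1 point per library, with 95% Poisson counting intervals as bars. Cx3cl1 is the highest gene in each library, at 132 (Cx43-deleted), 162 (C57BL6-BALB/c WT) and 190 (C57BL6 WT), and the Cx43-deleted point is the lowest of the 3 for every gene but Cxcl10.

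The promoter windows of 5 of these genes are shown because they set the steadily made ligands, at the top of the order, beside the inducible ones at the bottom, with Cxcr4, the gene furthest below the C57BL6 WT. Sequences are from RefSeq on GRCm38.p6, run 5′ to 3′ from 250 bases before to 50 bases after the annotated start, and were found for 8 of the 10 genes. Capitals mark matches, on either strand, to a TATA box (TATAAA), a GC box (GGGCGG), an interferon response element (GAAA, any 2 bases, then GAAA) or the kappa-B motif bound by NF-kB.
Cx3cl1 (chr8:94771930-94772229, plus strand): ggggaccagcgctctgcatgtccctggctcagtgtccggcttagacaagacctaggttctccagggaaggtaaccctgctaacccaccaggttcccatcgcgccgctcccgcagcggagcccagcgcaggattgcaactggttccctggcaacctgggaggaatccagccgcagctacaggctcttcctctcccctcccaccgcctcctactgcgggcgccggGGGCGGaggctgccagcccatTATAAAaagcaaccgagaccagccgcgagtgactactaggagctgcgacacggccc
Cxcl12 (chr6:117168285-117168584, plus strand): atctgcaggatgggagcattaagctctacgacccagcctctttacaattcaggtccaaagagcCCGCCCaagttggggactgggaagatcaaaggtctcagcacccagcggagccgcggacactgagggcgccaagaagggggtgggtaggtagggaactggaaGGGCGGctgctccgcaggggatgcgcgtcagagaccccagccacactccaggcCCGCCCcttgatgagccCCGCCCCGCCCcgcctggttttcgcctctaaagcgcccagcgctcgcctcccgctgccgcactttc
Cxcr4 (chr1:128592250-128592549, minus strand): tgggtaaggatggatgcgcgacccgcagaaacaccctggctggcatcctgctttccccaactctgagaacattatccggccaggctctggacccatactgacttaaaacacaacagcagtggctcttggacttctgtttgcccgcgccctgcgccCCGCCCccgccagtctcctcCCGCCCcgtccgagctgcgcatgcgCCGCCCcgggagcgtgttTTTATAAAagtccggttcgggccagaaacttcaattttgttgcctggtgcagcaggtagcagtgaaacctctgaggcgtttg
Cxcl1 (chr5:90890995-90891294, plus strand): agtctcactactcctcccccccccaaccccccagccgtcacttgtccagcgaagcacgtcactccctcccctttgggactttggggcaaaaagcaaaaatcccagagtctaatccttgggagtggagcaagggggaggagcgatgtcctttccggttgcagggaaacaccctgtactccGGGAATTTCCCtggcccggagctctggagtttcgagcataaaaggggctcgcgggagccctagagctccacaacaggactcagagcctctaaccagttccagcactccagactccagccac
Cxcl10 (chr5:92348840-92349139, minus strand): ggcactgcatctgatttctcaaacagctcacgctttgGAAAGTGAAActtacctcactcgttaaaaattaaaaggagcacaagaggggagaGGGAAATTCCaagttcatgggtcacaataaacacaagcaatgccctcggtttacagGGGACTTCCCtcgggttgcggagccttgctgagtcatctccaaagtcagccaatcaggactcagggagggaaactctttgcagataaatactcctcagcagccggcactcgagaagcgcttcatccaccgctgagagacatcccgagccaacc

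Cxcl12 held 5 GC boxes, Cxcr4 held 3, Cx3cl1 held 1 and Ackr3, not shown above, held 1, while Cxcl1 and Cxcl10 held 0. A GC box was present in 35.7% of 32851 windows of the same length. The kappa-B motif was found in Cxcl1, as 2 overlapping matches on opposite strands of 1 site, and at 2 separate sites in Cxcl10, and in none of the other 6 windows; it was present in 4.51% of all windows. Cxcl10 also held an interferon response element, which 3.44% of windows hold. A TATA box was found in Cx3cl1, Ackr3 and Cxcr4, where the 2 matches overlap on opposite strands, against 13.6% of all windows. In bases from the annotated start, these matches begin at −6 in Cx3cl1, −8 in Ackr3, and −32 and −30 in Cxcr4. The windows of Ackr1 and Ccr2 held 0 matches to any of the 4. The guanine and cytosine content was 64.7% in Cxcl12 and 64.7% in Cx3cl1, against 50.3% in Cxcl10, 38.0% in Ccr2 and a median of 52.7% over all windows. A match describes letters only.

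Setting the Cx43-deleted library beside its background-matched WT asks how vessel transcripts differ when astroglia lack connexin 43. Of the 10 genes, 9 were lower in the Cx43-deleted library than in the C57BL6-BALB/c WT and Cxcl10 was higher; of all 16604 measured genes 49.5% were lower and 50.5% higher. For 7 of the 9 the 95% counting interval of the fold excluded 1; these intervals, here and below, cover counting error only. Counts of 2-fold differences use log2 ratios of CPM + 0.5, a pseudocount that shrinks the ratios of low genes. On that scale Ccl2 alone was 2-fold lower or more, where 1.01% of all genes were, and 0 of 10 were 2-fold or more higher, where 1.05% were. With no pseudocount Ccl2 and Ccr2 were 2-fold lower or more, where 1.52% of all genes were. Against the C57BL6 WT, a WT of another background, all 10 were lower, where 52.9% of all genes were lower and 47.1% higher. Cxcr4 alone was lower by 2-fold or more, where 2.91% of all genes were and 1.54% were 2-fold or more higher; with no pseudocount the genes were Cxcr4, Ccl2 and Ccr2, 3 of 10, where 4.02% of all genes were. The Cx43-deleted library lay below both WT libraries for 9 of 10 genes, against 35.6% of all genes, and 2-fold or more below both for 0 of 10 on the log2 scale of CPM + 0.5, against 0.379%. With no pseudocount it lay 2-fold or more below both for 2 of 10, Ccl2 and Ccr2, against 0.729% of all genes. It lay above both for 0 of 10, against 33.2% of all genes at any size and 0.428% at 2-fold. Ccl2 and Cxcl1 met the minimum in the WT libraries only and could not have been counted above both. The median log2 ratio over the 10 was −0.42 against the C57BL6-BALB/c WT and −0.84 against the C57BL6 WT, beside 0.00 and −0.03 over all genes. The 2 comparisons share the Cx43-deleted library.

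The median of the endothelial markers lay on the same side. This median log2 ratio was −0.15 against the C57BL6-BALB/c WT and −0.98 against the C57BL6 WT. Of the 15 markers 10 were below both WT libraries, against 35.6% of all genes. Against the C57BL6-BALB/c WT, however, 5 of 15 markers were higher, and so was their sum, 9274 against 8901 CPM. The part of these markers in the chemokine differences was not tested. Relative to that endothelial median, Cxcr4 lay below both WT libraries, with and without the pseudocount. Ccl2 and Ccr2 also lay below both with no pseudocount, at −0.18 and −0.22 against the C57BL6 WT, but at 0.14 and 0.07 with CPM + 0.5. The other 7 genes were above the C57BL6 WT on both scales, with log2 ratios of 0.04 to 0.58 on CPM + 0.5. Against the C57BL6-BALB/c WT, all but Cxcl12, Ackr1 and Cxcl10 stayed below that median on both scales.

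**Figure D2:**
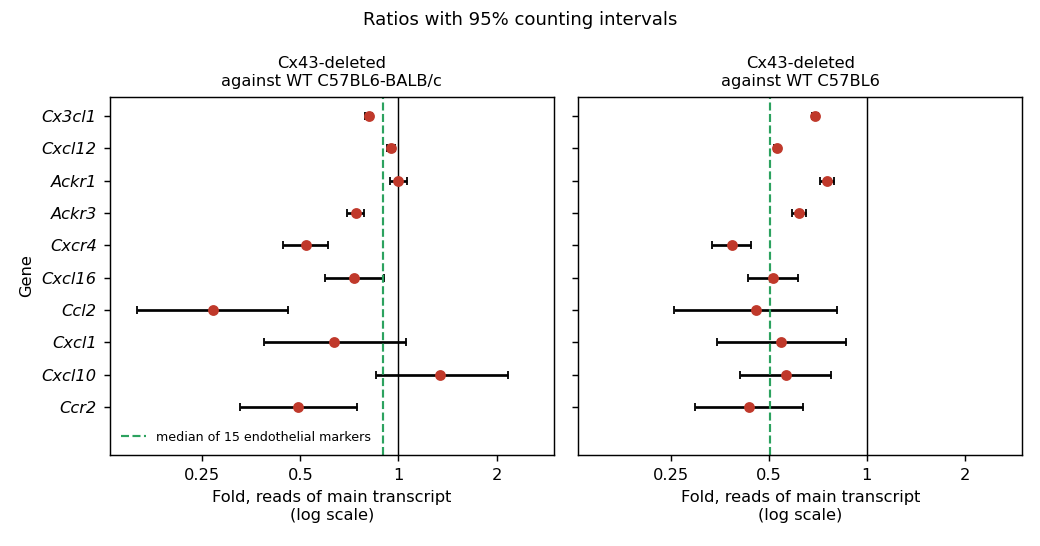
Fold of the Cx43-deleted library over the C57BL6-BALB/c WT (left) and over the C57BL6 WT (right) for the reads of each gene's most abundant transcript, on log axes, with 95% binomial counting intervals as bars, a line at 1 and a dashed line at the median of 15 endothelial markers. On the left 7 of 10 intervals lie wholly below 1 and that of Cxcl10 spans it; on the right all 10 lie below 1 while 7 of 10 points sit right of the dashed line.

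Cxcl12 (ENSMUSG00000061353; GRCm38 chromosome 6, 117168535 to 117181367), the homeostatic ligand of CXCR4, was at 709 CPM in the Cx43-deleted library, against 766 in the C57BL6-BALB/c WT and 1315 in the C57BL6 WT. Read numbers on its most abundant transcript were 18593 (Cx43-deleted), 7754 (C57BL6-BALB/c WT) and 16666 (C57BL6 WT). The Cx43-deleted and matched WT libraries were therefore close, with the C57BL6 WT apart from both. The gene was 1.05-fold lower than in the C57BL6-BALB/c WT (interval 1.03 to 1.08) and 1.89-fold lower than in the C57BL6 WT (1.85 to 1.93). The C57BL6-BALB/c WT was itself 1.79-fold below the C57BL6 WT (1.75 to 1.84).

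The 4 annotated Cxcl12 transcripts did not differ between libraries to the same degree. They overlap, so a read may be counted on several of them. The longest, of 5627 bases, and a coding transcript of 3132 bases end at 117181367 and 117181366, while a coding transcript of 1878 bases ends upstream, at 117175069. Reads on the shorter-ending form were 3066 in the Cx43-deleted library, 1466 in the C57BL6-BALB/c WT and 2225 in the C57BL6 WT, which is 16.5%, 18.9% and 13.4% of those on the longest. For this form the Cx43-deleted library stood at 0.827-fold of the C57BL6-BALB/c WT (0.777 to 0.880), and for the longest at 0.948-fold (0.923 to 0.973). Against the C57BL6 WT the same folds were 0.653 (0.618 to 0.690) and 0.528 (0.517 to 0.540). The intervals of the forms did not overlap in either comparison, and the order of the forms was opposite in them.

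**Figure D3:**
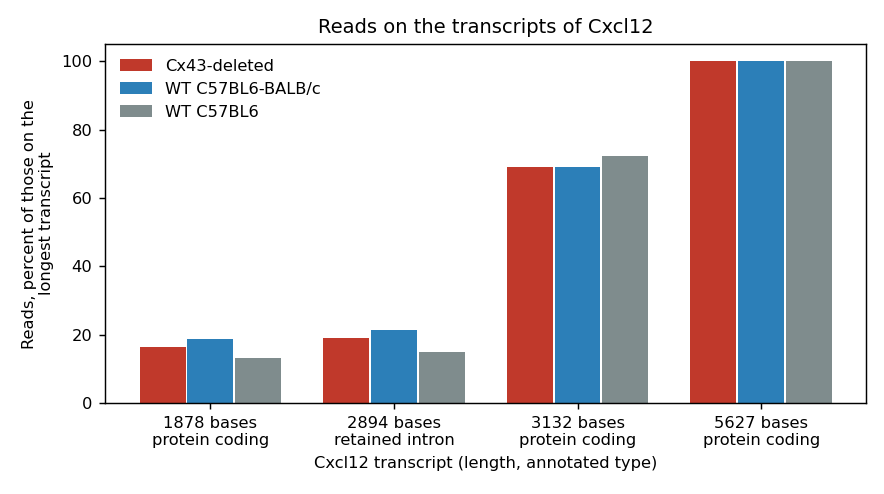
Reads on each annotated Cxcl12 transcript as a percentage of those on the longest, for the Cx43-deleted, the C57BL6-BALB/c WT and the C57BL6 WT libraries, 1 bar per library. The transcript of 1878 bases is at 16.5% (Cx43-deleted), 18.9% (C57BL6-BALB/c WT) and 13.4% (C57BL6 WT), and the C57BL6 WT has the lowest bar for the 2 shorter transcripts and the highest for that of 3132 bases.

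Cxcr4 (ENSMUSG00000045382; chromosome 1, 128588199 to 128592293) is the signalling receptor for CXCL12, on leukocytes, microglia and sprouting endothelium. It was at 10.6 CPM in the Cx43-deleted library, against 20.7 in the C57BL6-BALB/c WT and 26.2 in the C57BL6 WT, with 374, 285 and 460 reads on its main transcript. The Cx43-deleted value lay well under both WT values. It was 1.93-fold lower than in the C57BL6-BALB/c WT (1.65 to 2.25) and 2.60-fold lower than in the C57BL6 WT (2.26 to 2.98), with log2 ratios of −0.92 and −1.26. Relative to the endothelial median these were −0.77 and −0.28. The shorter of its 2 transcripts gave 0.509-fold and 0.455-fold. Microglial markers, 10 of 10 of them read in each library, summed to 345 (Cx43-deleted), 360 (C57BL6-BALB/c WT) and 510 (C57BL6 WT) CPM, and neutrophil markers to 27.6 (Cx43-deleted), 41.6 (C57BL6-BALB/c WT) and 53.4 (C57BL6 WT) CPM with Elane at 0 reads in the Cx43-deleted library. Their part in the Cxcr4 difference was not tested.

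Ackr3 (ENSMUSG00000044337; chromosome 1, 90203980 to 90216751), the atypical receptor that takes up CXCL12, was at 62.2 CPM in the Cx43-deleted library, 84.2 in the C57BL6-BALB/c WT and 100.4 in the C57BL6 WT. The gene was thus ordered as Cxcr4 was, with a smaller gap. It was 1.35-fold lower than in the C57BL6-BALB/c WT (1.28 to 1.43) and 1.61-fold lower than in the C57BL6 WT (1.53 to 1.70). Arterial endothelial markers summed to 775 (Cx43-deleted), 955 (C57BL6-BALB/c WT) and 1350 (C57BL6 WT) CPM. They were likewise below both WT libraries in 10 of 10 members, where 35.6% of all genes were, and their part was not tested.

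Ratios between these genes within 1 library do not depend on how libraries are scaled. Per length, Cxcl12 exceeded Cxcr4 15.9-fold (14.4 to 17.7) in the Cx43-deleted library, 8.73-fold (7.75 to 9.86) in the C57BL6-BALB/c WT and 11.6-fold (10.6 to 12.8) in the C57BL6 WT. The ligand was therefore most abundant relative to its signalling receptor in the Cx43-deleted library, with no overlap of the intervals. Cxcl12 over Ackr3 was 2.55 (Cx43-deleted), 1.99 (C57BL6-BALB/c WT) and 3.00 (C57BL6 WT), so that ratio was highest in the C57BL6 WT. Cxcr4 over Ackr3 was 0.160 (0.144 to 0.178) in the Cx43-deleted library, against 0.228 (0.200 to 0.259) in the C57BL6-BALB/c WT and 0.258 (0.233 to 0.285) in the C57BL6 WT.

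Ackr1 (ENSMUSG00000037872; chromosome 1, 173331886 to 173333750) differed least of the 10 from the matched WT. Its level was 71.9 CPM in the Cx43-deleted library, 72.0 in the C57BL6-BALB/c WT and 95.4 in the C57BL6 WT, from 3859, 1526 and 2424 reads. The fold against the C57BL6-BALB/c WT was 1.00, with an interval of 0.942 to 1.06, and the count of 9 genes below both WT libraries includes it at this margin. It was 1.33-fold lower than in the C57BL6 WT (1.26 to 1.40). Cadm3, a neighbouring adhesion molecule gene, overlaps 25.7% of the Ackr1 exon bases, and with a library kit that does not keep strand the value is uncertain. Venous endothelial markers, 9 of 10 of them found, summed to 3154 (Cx43-deleted), 2665 (C57BL6-BALB/c WT) and 4295 (C57BL6 WT) CPM, with 0 of the 9 at 0 reads. Against the C57BL6-BALB/c WT, though, 5 of the 9 were lower and 4 higher. Their median log2 ratios were −0.11 to the C57BL6-BALB/c WT and −0.93 to the C57BL6 WT, and their part was not tested.

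Cx3cl1 (ENSMUSG00000031778; chromosome 8, 94772009 to 94782427), the ligand of the microglial receptor CX3CR1, was at 523 CPM in the Cx43-deleted library, 659 in the C57BL6-BALB/c WT and 756 in the C57BL6 WT. Its main transcript had 23372 (Cx43-deleted), 11406 (C57BL6-BALB/c WT) and 15975 (C57BL6 WT) reads. The gene stood 1.23-fold lower than in the C57BL6-BALB/c WT (1.21 to 1.26) and 1.44-fold lower than in the C57BL6 WT (1.41 to 1.47). The receptor gene Cx3cr1 was at 21.8 (Cx43-deleted), 22.1 (C57BL6-BALB/c WT) and 32.6 (C57BL6 WT) CPM, close in the Cx43-deleted and matched WT libraries, with a fold of 0.986 (0.885 to 1.10). Over neuronal markers the median log2 ratio was −0.10 against the C57BL6-BALB/c WT and 0.26 against the C57BL6 WT, where Cx3cl1 was at −0.33 and −0.53; their part was not tested.

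Cxcl16 (ENSMUSG00000018920; chromosome 11, 70453983 to 70459984) encodes the other transmembrane chemokine, the ligand of CXCR6. Its level was 12.9 CPM in the Cx43-deleted library, 17.2 in the C57BL6-BALB/c WT and 25.3 in the C57BL6 WT. Reads on its most abundant transcript were 261 (Cx43-deleted), 141 (C57BL6-BALB/c WT) and 240 (C57BL6 WT). The Cx43-deleted library was 1.37-fold below the C57BL6-BALB/c WT (1.11 to 1.68) and 1.94-fold below the C57BL6 WT (1.62 to 2.32). Zmynd15 overlaps 18.3% of its exon bases, so part of these reads may belong to that gene. Cxcr6 was at 0.783 (Cx43-deleted), 0.330 (C57BL6-BALB/c WT) and 0.669 (C57BL6 WT) CPM, under the minimum in each library. Adam10 and Adam17, the sheddases that cut CX3CL1 and CXCL16 from the membrane, were at 207 and 377 CPM in the Cx43-deleted library, 207 and 331 in the C57BL6-BALB/c WT and 267 and 362 in the C57BL6 WT.

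Among the inducible ligands, Ccl2 (ENSMUSG00000035385; chromosome 11, 82035571 to 82037453), the main attractant of CCR2-bearing monocytes, was at 0.895 CPM in the Cx43-deleted library, 3.54 in the C57BL6-BALB/c WT and 2.01 in the C57BL6 WT. It was the only one of the 10 that was highest in the C57BL6-BALB/c WT. Only 26 (Cx43-deleted), 38 (C57BL6-BALB/c WT) and 27 (C57BL6 WT) reads lay on its most abundant transcript, and 22 (Cx43-deleted), 37 (C57BL6-BALB/c WT) and 24 (C57BL6 WT) on the coding one. The Cx43-deleted library was 3.70-fold below the C57BL6-BALB/c WT (2.19 to 6.34) and 2.19-fold below the C57BL6 WT (1.23 to 3.91). Relative to the endothelial median with no pseudocount, the log2 ratios were −1.83 to the C57BL6-BALB/c WT and −0.18 to the C57BL6 WT. With CPM + 0.5 they were −1.38 and 0.14, so its position beside that median in the C57BL6 WT comparison depended on the pseudocount.

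Ccr2 (ENSMUSG00000049103; chromosome 9, 124101950 to 124113557), the monocyte receptor for CCL2, lay on the same side. Its level was 1.04 CPM in the Cx43-deleted library, 2.12 in the C57BL6-BALB/c WT and 2.40 in the C57BL6 WT, from 56, 45 and 61 reads. The gene stood 2.03-fold lower than in the C57BL6-BALB/c WT (1.34 to 3.06) and 2.30-fold lower than in the C57BL6 WT (1.57 to 3.37). On the log2 scale with the pseudocount of 0.5 these are −0.76 and −0.91, short of the 2-fold limit that the folds themselves pass. Reads covered only part of the transcript: 1159 (Cx43-deleted), 1426 (C57BL6-BALB/c WT) and 1360 (C57BL6 WT) of its 2888 bases had no read. Of 10 monocyte markers 4 were measured, and the list summed to 14.3 (Cx43-deleted), 13.4 (C57BL6-BALB/c WT) and 35.7 (C57BL6 WT) CPM, with Fcnb and Gm9733 at 0 reads in the Cx43-deleted library and F10 in the C57BL6-BALB/c WT. Ly6c2, a defining marker of inflammatory monocytes, had 2 (Cx43-deleted), 1 (C57BL6-BALB/c WT) and 1 (C57BL6 WT) reads. Their part in the Ccr2 difference was not tested.

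Cxcl1 (ENSMUSG00000029380; chromosome 5, 90891241 to 90893115), a neutrophil attractant, was at 0.839 CPM in the Cx43-deleted library, 1.32 in the C57BL6-BALB/c WT and 1.54 in the C57BL6 WT, from 45, 28 and 39 reads. The difference from the C57BL6-BALB/c WT was not detectable at this depth, at 1.57-fold lower with an interval of 0.946 to 2.58. Against the C57BL6 WT it was 1.83-fold lower (1.16 to 2.87). Its signalling receptor Cxcr2 was at 0.354 CPM in the Cx43-deleted library, 1.08 in the C57BL6-BALB/c WT and 0.197 in the C57BL6 WT, from 19, 23 and 5 reads. Cxcr2 was 3.06-fold below the C57BL6-BALB/c WT (1.60 to 5.95), and against the C57BL6 WT the interval of its fold, 0.650 to 6.17, included 1. Cxcl2 and Cxcl3, its neighbours in the neutrophil-attracting group, had at most 2 reads in any library.

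Cxcl10 (ENSMUSG00000034855; chromosome 5, 92346638 to 92348889), an interferon-induced attractant of T cells, was the gene that did not lie below both WT libraries. Its level was 2.24 CPM in the Cx43-deleted library, 1.56 in the C57BL6-BALB/c WT and 4.41 in the C57BL6 WT. Reads on its most abundant transcript were 88 (Cx43-deleted), 26 (C57BL6-BALB/c WT) and 74 (C57BL6 WT). The gene was 1.34-fold higher than in the C57BL6-BALB/c WT, with an interval of 0.855 to 2.16 that includes 1. It was 1.78-fold lower than in the C57BL6 WT (1.29 to 2.45). The C57BL6-BALB/c WT lay at 0.421-fold of the C57BL6 WT (0.258 to 0.666). Of its 1094 bases, 99 (Cx43-deleted), 389 (C57BL6-BALB/c WT) and 73 (C57BL6 WT) had no read, so coverage was thinnest in the C57BL6-BALB/c WT. Cxcl9 and Cxcl11, the related ligands of CXCR3, were at 1.03 and 0.652 CPM in the Cx43-deleted library, 0.519 and 1.84 in the C57BL6-BALB/c WT and 1.02 and 1.61 in the C57BL6 WT. Cxcl9, like Cxcl10, was lowest in the C57BL6-BALB/c WT, while Cxcl11 was lowest in the Cx43-deleted library. Cxcl9 rests on 55 (Cx43-deleted), 11 (C57BL6-BALB/c WT) and 26 (C57BL6 WT) reads. Its fold against the C57BL6 WT was 1.00 (0.618 to 1.66), an interval that includes 1. Cxcl11 shares 41.7% of its exon bases with Gm2673 and is uncertain.

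Per length, Ccl2 over Cxcl10 was 0.295 (0.183 to 0.461) in the Cx43-deleted library, 1.46 (0.863 to 2.502) in the C57BL6-BALB/c WT and 0.364 (0.225 to 0.573) in the C57BL6 WT. In this ratio of 2 inducible ligands the Cx43-deleted and the C57BL6 WT libraries had overlapping intervals and the matched WT stood apart. The pair joins Ccl2, the only one of the 10 highest in the matched WT, to Cxcl10, the only one lowest in it. The ratio therefore restates those levels, and both genes rest on fewer than 100 reads in every library. For Ccl2 over Cxcl1 and for Cxcl10 over Cxcl1 the intervals of all 3 libraries overlapped.

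The WT libraries also differed from each other. The C57BL6-BALB/c WT was below the C57BL6 WT for 9 of the 10 genes, where 53.3% of all genes were lower and 46.7% higher. Cxcl10 was 2-fold or more lower, as were 2.09% of all genes, and 0 of 10 were 2-fold or more higher, where 1.17% were. Ccl2 was the exception, 1.69-fold higher in the C57BL6-BALB/c WT (1.003 to 2.87). The C57BL6 WT was the highest library for 9 of 10 genes and for 14 of 15 pan-endothelial markers, against 43.8% of all genes. The C57BL6-BALB/c WT was highest for 1 of 10, Ccl2, against 23.0%. The median log2 ratio over the 10 was −0.29, beside −0.03 over all genes.

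Of the other chemokine ligands, 31 were found and 15 reached the minimum. The Cx43-deleted library was under both others for 5 of these 15 and over both for 4. Cxcl11, Ccl24 and Ccl7 met the minimum through WT libraries only, so they could not have been counted over both. Ccl8 met it through the Cx43-deleted library only, so it could not have been counted under both. Of all genes 35.6% were under both and 33.2% over both. Their median log2 ratios were −0.01 to the C57BL6-BALB/c WT and −0.07 to the C57BL6 WT, and 0 were 2-fold or more beyond both on CPM + 0.5. With no pseudocount 1 was, Cxcl11, which lay 2.66-fold below the C57BL6-BALB/c WT (1.35 to 5.27) and 2.33-fold below the C57BL6 WT (1.19 to 4.59), from 19 (Cx43-deleted), 20 (C57BL6-BALB/c WT) and 21 (C57BL6 WT) reads. Those furthest outside were Cxcl11, Ccl24, Ccl7 and Ccl27a. Ccl24, an eosinophil attractant, was at 0.652 CPM in the Cx43-deleted library, 2.22 in the C57BL6-BALB/c WT and 1.06 in the C57BL6 WT. The Cx43-deleted library was 3.40-fold below the C57BL6-BALB/c WT (2.15 to 5.42). It was 1.63-fold below the C57BL6 WT, with an interval of 0.948 to 2.77 that includes 1. Ccl7, a CCR2 ligand beside Ccl2 on chromosome 11, was at 0.615 (Cx43-deleted), 1.08 (C57BL6-BALB/c WT) and 0.984 (C57BL6 WT) CPM, with an interval that includes 1 in both comparisons. Ccl27a was on the other side, at 54.2 (Cx43-deleted), 37.8 (C57BL6-BALB/c WT) and 40.6 (C57BL6 WT) CPM, and near-identical copies of this gene make it uncertain.

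Of the other receptors, 19 were found and 9 reached the minimum. The Cx43-deleted library was under both others for 6 of the 9 receptors, against 35.6% of all genes. Among them, Ccr9 met the minimum through the WT libraries only and could not have been counted over both. It was over both for 2, against 33.2% of all genes. The medians of the 9 receptors were −0.20 to the C57BL6-BALB/c WT and −0.30 to the C57BL6 WT, and 0 were 2-fold or more from either on CPM + 0.5. With no pseudocount Cxcr2 was 2-fold or more below the C57BL6-BALB/c WT and Ackr2 2-fold or more above the C57BL6 WT. Ccrl2, which presents chemerin and does not signal, was at 10.1 (Cx43-deleted), 13.5 (C57BL6-BALB/c WT) and 19.6 (C57BL6 WT) CPM, and Ccr9, a receptor of gut-homing T cells 21.5% of whose exon bases overlap other genes, at 0.802 (Cx43-deleted), 1.41 (C57BL6-BALB/c WT) and 1.34 (C57BL6 WT) CPM. Ackr2, an atypical receptor that clears inflammatory CC chemokines, was at 2.85 CPM in the Cx43-deleted library, 2.26 in the C57BL6-BALB/c WT and 1.22 in the C57BL6 WT. Its fold was 1.26 (0.906 to 1.78) against the C57BL6-BALB/c WT, an interval that includes 1, and 2.34 (1.58 to 3.56) against the C57BL6 WT. Ackr4, which clears the CCR7 ligands, was at 13.7 (Cx43-deleted), 12.4 (C57BL6-BALB/c WT) and 9.37 (C57BL6 WT) CPM. On its main transcript alone the fold was 1.22 (1.01 to 1.47) against the C57BL6-BALB/c WT. Against the C57BL6 WT it was 1.07 (0.910 to 1.27), an interval that includes 1. The CPM sum 2 transcripts and order the WT libraries otherwise. Per kb of the main transcript, Ackr4 was at 3.95 (Cx43-deleted), 3.25 (C57BL6-BALB/c WT) and 3.68 (C57BL6 WT). Acad11 overlaps 8.9% of its exon bases.

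**Figure D4:**
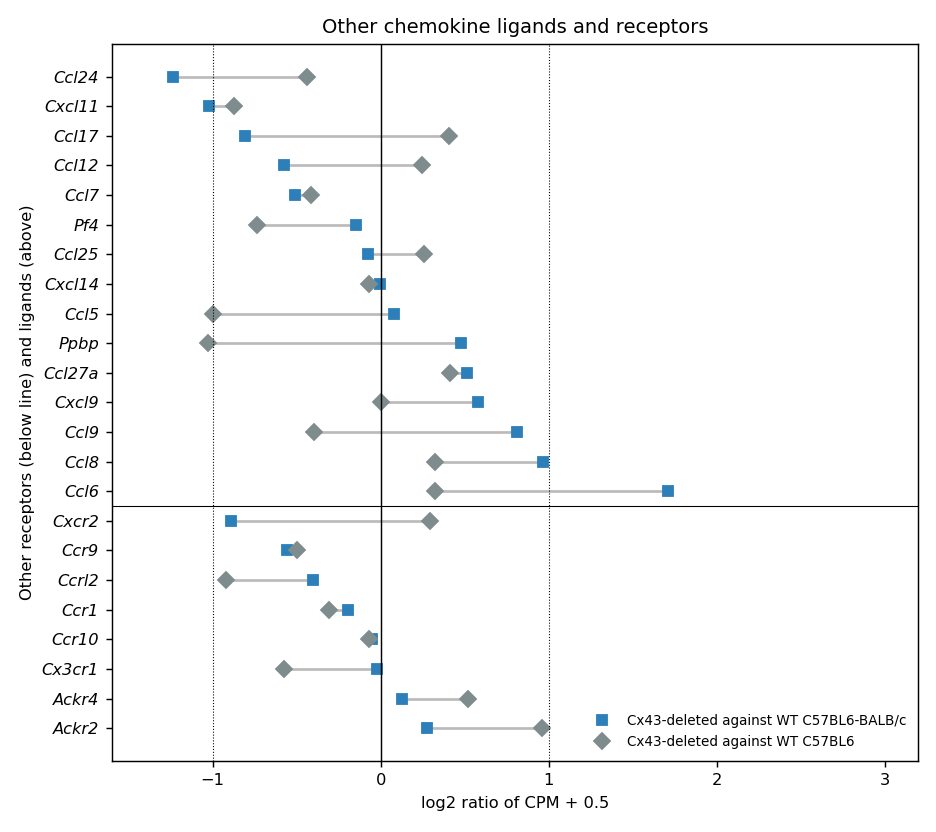
Log2 ratios of CPM + 0.5 for the 15 other ligands (above the line) and 8 of the 9 other receptors (below it) that reached the minimum, Cx43-deleted against the C57BL6-BALB/c WT as squares and against the C57BL6 WT as diamonds, 1 row per gene, with dotted lines at 2-fold. The ligands scatter on both sides of 0, and 5 of the 8 receptors drawn have both points left of it.

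For 9 of the 10 genes the ligand or receptor gene nearest in its pair of log2 ratios, out of 33 candidates and over 3 libraries, is given as a description (straight-line distance, log2). Cxcl16 lay nearest to Ccrl2, at a distance of 0.03, Ackr3 and Cxcl1 to each other, at 0.08, and Cx3cl1 to Cxcl1, at 0.13. Cxcl12 was nearest to the platelet chemokine Pf4, at 0.16, Ackr1 to Cx3cr1, at 0.17, and Cxcl10 to the platelet chemokine Ppbp, at 0.20. The gene nearest to Cxcr4 was Ccr2, at 0.38, and that nearest to Ccl2 was Ccl24, at 0.50.

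Genes that act around the 10 were counted by list, beside 35.6% of all genes under both WT libraries and 33.2% over both. Of 28 measured genes of receptor signalling, 15 lay under both WT libraries and 5 over both; the medians were −0.06 to the C57BL6-BALB/c WT and −0.26 to the C57BL6 WT. Pik3cg, the leukocyte PI3-kinase driven by G protein-coupled receptors, was furthest below, at 5.95 CPM in the Cx43-deleted library, 9.76 in the C57BL6-BALB/c WT and 11.8 in the C57BL6 WT, while Grk3, a receptor kinase, and Arrb2, a beta-arrestin, were furthest above, at nearer log2 ratios of 0.29 and 0.23. Of 12 measured processing and partner genes, 6 lay under both and 2 over both; the medians were −0.04 to the C57BL6-BALB/c WT and −0.33 to the C57BL6 WT. Mmp9, a protease that cuts chemokines, was at 9.84 (Cx43-deleted), 6.37 (C57BL6-BALB/c WT) and 5.63 (C57BL6 WT) CPM, and Sdc1 and Sdc2, proteoglycans that hold chemokines at the cell surface, had nearer log2 ratios of −0.53 and −0.38.

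Of 19 measured genes that induce chemokines or answer the same cytokines, 15 lay under both WT libraries and 1 over both. Of all genes 35.6% lay under both and 33.2% over both. The medians of the 19 were −0.11 to the C57BL6-BALB/c WT and −0.54 to the C57BL6 WT. Il1b was the member 2-fold or more below both, where 0.379% of all genes were. Its level was 0.485 CPM in the Cx43-deleted library, 1.70 in the C57BL6-BALB/c WT and 2.05 in the C57BL6 WT. It met the minimum of 1 CPM through the WT libraries only, so it could not have been counted above both. Only 15 (Cx43-deleted), 23 (C57BL6-BALB/c WT) and 37 (C57BL6 WT) reads lay on its main transcript. Vcam1, an adhesion molecule of activated endothelium, was at 137 (Cx43-deleted), 181 (C57BL6-BALB/c WT) and 262 (C57BL6 WT) CPM, and Tnfaip3, a brake on NF-kB signalling, had a nearer log2 ratio of −0.38. The receptor Il1r1 was the one above both, at 398 (Cx43-deleted), 210 (C57BL6-BALB/c WT) and 320 (C57BL6 WT) CPM. Immediate early genes, which respond to stimuli and to tissue handling, were below both WT libraries in 10 of 10 members, against 35.6% of all genes. They summed to 638 CPM in the Cx43-deleted library, 1847 in the C57BL6-BALB/c WT and 2106 in the C57BL6 WT. Their part in the levels of the inducible ligands was not tested.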

How the data were processed

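PolyA+ RNA of brain vessels was sequenced from TruSeq RNA v2 libraries, per the labels' protocols, 1 library per group. The authors deposited a raw count per Ensembl transcript and, per the file headers, the same count as a fraction of a library total, which gave the totals. The submitters' processing notes list CASAVA 1.8.2, Bowtie and mm10; the counting program and annotation are not given there. A read was counted on each transcript it overlaps, since counts sum to 2.55, 2.53 and 2.45 times the totals (Cx43-deleted, then the C57BL6-BALB/c WT, then the C57BL6 WT). Other deposited columns, named in the headers length and bases not covered, gave transcript length and bases without a read.

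Of 82813 transcripts, 69379 matched GENCODE M21 (GRCm38), the source of names and gene positions; 217 on another chromosome were left out. Deposited coordinates, of an older build, were not used. Counts summed per gene were divided by the total times a TMM factor (0.976, 1.00, 1.02; edgeR 4.0.16, R 4.3.3), giving CPM. Log2 ratios used a pseudocount of 0.5, which understates ratios of low genes, and the minimum was 1 CPM in any 1 library. Folds and their exact binomial 95% intervals use the reads of 1 transcript, the most abundant (scipy 1.17.1, Python 3.11.15), levels per kb with exact Poisson intervals. The floor of 3 reads is 0.0559, 0.141 and 0.118 CPM. The steps were tested on simulated counts.

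No test was possible. All 10 genes were named; of other lists, the members furthest outside both WT libraries, except that some genes are not reported here. Receptors of the 10 ligands, their sheddases, close relatives and Il1r1 were named in addition, after their values had been seen, as were genes of the closing section. The members and lists were chosen with earlier results of these data known.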

Additional observations from a re-analysis of the deposited data

How the results depend on the processing

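No paired analysis was possible because each group has 1 library, and leaving out a library was not possible for the same reason. Of 318 alternative values of the log2 ratios, 268 moved by less than their counting interval, 50 by more and 0 ratios past 2-fold changed sign; 35 of any size did, 18 of them when ratios were centred on the endothelial median and 16 under that centring with no pseudocount. That centring left 0 genes 2-fold or more below the C57BL6 WT, 1 of the 10 below both WT libraries, and 0 other ligands and 0 other receptors below both, where the reported counts are 1, 9, 5 and 6. By construction it subtracts the endothelial median from each ratio. The same centring with no pseudocount, also chosen after seeing the data, left 0 genes 2-fold or more below the C57BL6 WT, 3 of the 10 below both, 1 other ligand and 0 other receptors. The count of genes 2-fold or more below the C57BL6 WT was 2 with the library total alone, 2 with the mean count per kb and 3 with a pseudocount of 0.1. Genes 2-fold or more below both WT libraries numbered 1 with a pseudocount of 0.1 and 1 with the mean count per kb, where the reported count is 0; the cause was not tested. With no pseudocount, chosen after seeing the data, 2 genes were 2-fold or more below the C57BL6-BALB/c WT, 3 below the C57BL6 WT and 2 below both; a pseudocount by construction shrinks the ratios of low genes. A minimum of 5 CPM left out Ccl2, Ccr2, Cxcl1 and Cxcl10. With Ccl2, the gene counted, removed by that filter, 0 of the genes kept were 2-fold below the C57BL6-BALB/c WT. Under the same minimum, 2 other ligands and 3 other receptors lay below both, from fewer genes. With median-of-ratios size factors Ackr1 turned to 0.0034 above the C57BL6-BALB/c WT on the log2 scale. Depth limits Ccl2, Ccr2, Cxcl1 and Cxcl10 most, with fewer than 100 reads each per library on the most abundant transcript.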

Other observations

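Several chemokines of macrophages and platelets differed from 1 WT library more than from the other. Ccl6, a macrophage chemokine, was at 6.08 CPM in the Cx43-deleted library, 1.51 in the C57BL6-BALB/c WT and 4.76 in the C57BL6 WT. Reads on its most abundant transcript were 172 (Cx43-deleted), 18 (C57BL6-BALB/c WT) and 65 (C57BL6 WT). The Cx43-deleted library was 3.78-fold above the C57BL6-BALB/c WT (2.32 to 6.53), and the C57BL6-BALB/c WT was 3.01-fold below the C57BL6 WT (1.77 to 5.40). Ccl9, its neighbour on chromosome 11, was at 2.03 (Cx43-deleted), 0.943 (C57BL6-BALB/c WT) and 2.83 (C57BL6 WT) CPM, and Ccl8, made by perivascular macrophages, at 1.30 (Cx43-deleted), 0.424 (C57BL6-BALB/c WT) and 0.945 (C57BL6 WT) CPM. For all 3 the C57BL6-BALB/c WT was the lowest library, with 17 reads on the most abundant transcript for Ccl9 and 9 for Ccl8. For Ccl8 the interval of its fold over the C57BL6 WT, 0.184 to 1.001, includes 1. Perivascular macrophage markers summed to 260 (Cx43-deleted), 216 (C57BL6-BALB/c WT) and 281 (C57BL6 WT) CPM, and their part was not tested.

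The platelet chemokines Pf4 and Ppbp were highest in the C57BL6 WT, at 3.32 and 2.89 CPM in the Cx43-deleted library, 3.73 and 1.93 in the C57BL6-BALB/c WT and 5.86 and 6.42 in the C57BL6 WT. Red blood cell genes, which also come from blood left in the vessels, summed to 288 (Cx43-deleted), 362 (C57BL6-BALB/c WT) and 655 (C57BL6 WT) CPM, and their part was not tested. Cxcl14, at 29.2 (Cx43-deleted), 29.3 (C57BL6-BALB/c WT) and 30.6 (C57BL6 WT) CPM, was nearly level across the libraries, with a fold of 0.996 (0.907 to 1.09) against the C57BL6-BALB/c WT.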
